A study of Mus musculus with 83 samples.

Results

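The 10 genes described here encode proteins of the tight junction, the seal between neighbouring epithelial cells, and were chosen by name: the claudins Cldn1, Cldn2, Cldn3, Cldn4, Cldn7, Cldn8, Cldn15 and Cldn23, occludin (Ocln) and the scaffold protein ZO-1 (Tjp1). They are 10 of the 37764 genes in the table of read counts, and all 10 passed the filter on low counts that left 18325 genes for testing. The colon of 83 male C57BL/6J/Ukj mice was profiled by polyA RNA sequencing at 5 ages, with 16 mice at 3 months, 16 at 9, 16 at 15, 17 at 24 and 18 at 28. The labels give no treatment and no genotype besides the strain and describe the mice of every age as held for aging alone, and each mouse gave 1 library from bulk tissue of the proximal section of the colon. Libraries were prepared in 3 batches that each held 4 to 7 mice of every age, and held between 23026370 and 75838290 counted read pairs (median 35495123).

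Tight junctions form a belt near the apical edge of the epithelial sheet. Claudins of adjacent cells pair across the gap between them, and the set of claudins a cell makes decides which ions and how much water pass: some claudins seal the gap, others line it with charge-selective channels. Occludin is a membrane protein of the same strands, and ZO-1 ties the strands to the actin cytoskeleton from inside the cell. In the colon the seal keeps bacteria and their products in the lumen.

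The bulk libraries held all cell types of the gut wall, and the 7 epithelial markers (Epcam, Krt8, Krt18, Krt19, Vil1, Cdh17 and Lgals4) were all detected, with a summed level of 9291 to 16350 CPM (counts scaled to a common library size) over the mice. In such libraries fewer cells of a type and less RNA per cell cannot be told apart. Levels of different genes were compared in TPM, which also corrects for gene length, and ages were compared in CPM.

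The members sit on 7 chromosomes. Cldn4 lies at chr5:134945119-134946934 on the minus strand and Cldn3 at chr5:134986214-134987472 on the plus strand (GRCm38), so that these intronless genes stand back to back with 39279 bases between them. Cldn15 is on the same chromosome, at chr5:136966616-136975858. Cldn1 (chr16:26356642-26371841) and Cldn8 (chr16:88560828-88563183, also without introns) share chromosome 16 but lie far apart. The others are Cldn2 at chrX:139800828-139811386, Cldn7 at chr11:69964779-69967885, Cldn23 at chr8:35824712-35826559, Ocln at chr13:100496507-100552718 and Tjp1 at chr7:65296165-65527781.

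The 250 bases before the start site are shown for 4 members, from RefSeq's GRCm38.p6 annotation: the neighbours Cldn3 and Cldn4, Cldn7, whose level moved most closely with that of Cldn3 over the mice, and Cldn2, which varied most from mouse to mouse among the abundant members. The windows are chr5:134985964-134986213 (plus strand) for Cldn3, chr5:134946935-134947184 (minus strand) for Cldn4, chr11:69964529-69964778 (plus strand) for Cldn7 and chrX:139800558-139800807 (plus strand) for Cldn2. Capitals mark matches on either strand to 5 short motifs: the TATA box (TATAAA), the GC box (GGGCGG), the E-box read by Snail factors (CAGGTG), an HNF1 core (GTTAAT) and a CDX site (TTTATG).
Cldn3: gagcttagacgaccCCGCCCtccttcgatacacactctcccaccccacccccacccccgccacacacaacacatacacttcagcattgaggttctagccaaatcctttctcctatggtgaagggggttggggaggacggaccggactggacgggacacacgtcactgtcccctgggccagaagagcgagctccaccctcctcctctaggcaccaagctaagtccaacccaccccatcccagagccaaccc
Cldn4: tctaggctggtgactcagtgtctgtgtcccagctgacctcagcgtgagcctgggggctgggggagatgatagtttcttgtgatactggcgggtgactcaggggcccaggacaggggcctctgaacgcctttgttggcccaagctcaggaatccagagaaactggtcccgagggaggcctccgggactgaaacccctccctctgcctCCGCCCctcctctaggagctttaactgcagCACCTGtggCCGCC
Cldn7: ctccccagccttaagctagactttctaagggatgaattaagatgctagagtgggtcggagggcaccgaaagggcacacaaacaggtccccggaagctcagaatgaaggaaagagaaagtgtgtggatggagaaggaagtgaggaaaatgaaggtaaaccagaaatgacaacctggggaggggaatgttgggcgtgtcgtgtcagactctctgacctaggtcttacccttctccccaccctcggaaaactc
Cldn2: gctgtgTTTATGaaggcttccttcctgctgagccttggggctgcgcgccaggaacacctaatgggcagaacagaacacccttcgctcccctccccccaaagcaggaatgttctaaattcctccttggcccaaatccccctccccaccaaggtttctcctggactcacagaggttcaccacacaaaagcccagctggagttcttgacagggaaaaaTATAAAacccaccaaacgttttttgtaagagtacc

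Cldn2 was the only member among the 8 with a RefSeq window that held a TATA box, 35 bases before its start site, and it held a CDX site 244 bases before. The GC box was found in 6 of the 8: at −236 in Cldn3, at −44 and −5 in Cldn4, the latter running 1 base past the letters shown, and also in Cldn1, Cldn15, Ocln and Tjp1. Cldn1 held the HNF1 core, at −241. An E-box of the Snail type stood at −14 in Cldn4, and further copies lay just after the start sites of Cldn3, Cldn4 and Ocln. The Cldn7 window held none of the 5 motifs. The RefSeq start site of Tjp1 lay 156537 bases inside the upstream end of the gene span given above, and that of Cldn15 1253 bases. For the rest it lay within 20 bases of that end. Over all 32851 RefSeq windows of 300 bases, 13.6% held the TATA box, 35.7% the GC box, 20.2% the E-box, 7.10% the HNF1 core and 11.9% the CDX site, so a match to any of them is common. The matches in a window did not overlap each other.

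To see which members the colon makes most, their levels were ordered over all mice. Cldn7 (mean 1125 TPM) and Cldn3 (1063 TPM) stood at the top, at ranks 85 and 97 of the 37652 genes with a length. They made up 35.7% ± 1.72 (Cldn7) and 33.7% ± 2.15 (Cldn3) of the TPM of all 22 claudins in the table (mean and SD, n = 83). The channel-forming claudins followed, Cldn15 at 324 TPM and Cldn2 at 284 TPM. Cldn4 (105 TPM), Cldn23 (102 TPM), Cldn8 (80.9 TPM), Ocln (79.8 TPM) and Tjp1 (53.2 TPM) formed a middle group. Cldn1 stood far below at 0.607 TPM, or 0.0194% of the claudin TPM.

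Several neighbours in this order changed places in some of the mice. Cldn7 was above Cldn3 in 65 of 83 mice, Cldn15 above Cldn2 in 60, Cldn4 above Cldn23 in 44, Cldn23 above Cldn8 in 68 and Cldn8 above Ocln in 46, and in each of these pairs the mean log2 ratio was smaller than its SD. The steps from Cldn3 to Cldn15, from Cldn2 to Cldn4, from Ocln to Tjp1 and from Tjp1 to Cldn1 held in all 83 mice.

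**Figure D1:**
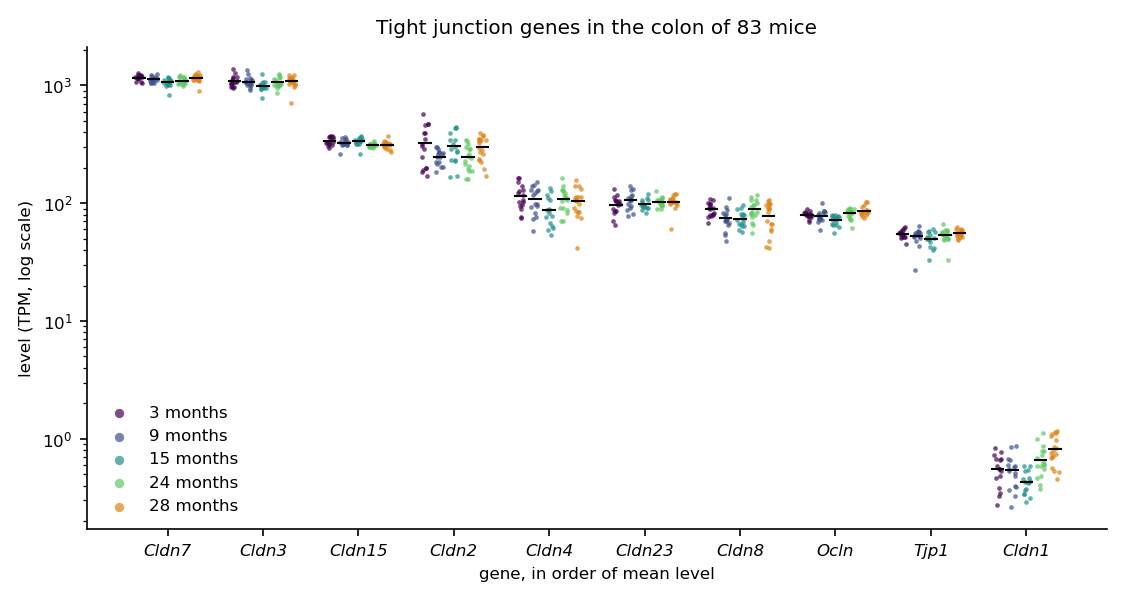
Level of each tight junction gene in each of the 83 mice, in TPM on a log axis, coloured by age, with a black bar at the mean of each age. Cldn7 and Cldn3 lie near 1000 TPM at every age, and Cldn1 lies between 0.262 and 1.16 TPM.

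The members also differed in how much they varied between mice. Over the 83 mice the coefficient of variation in CPM was 34.9% for Cldn1, 30.0% for Cldn2, 25.8% for Cldn4, 19.7% for Cldn8 and 13.8% for Cldn23. It was 10.9% for Cldn3, 10.4% for Tjp1, 9.19% for Cldn15, 9.10% for Ocln and 8.02% for Cldn7. The 2 most abundant members were thus among the steadier ones. The rarest, Cldn1, varied most over all mice, but it had only 11 to 142 counts per mouse, and counting noise adds to its variation. Cldn2 varied more than Cldn1 within 3 months (39.7% against 28.6%) and 15 months (27.8% against 22.2%), and less within 9, 24 and 28 months.

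To ask whether the members change over adult life, a single fit over all 83 mice with library batch as a term was made with the quasi-likelihood test of edgeR, and the p-values of each comparison were corrected over the 18325 genes by the method of Benjamini and Hochberg. A gene is said to have changed where its adjusted p was below 0.1, the limit used in the study. In the test for any difference among the 5 ages, 6 of the 10 members passed (Cldn1, Cldn2, Cldn4, Cldn8, Cldn15 and Ocln), beside 54.9% of all genes tested. Cldn3, Cldn7, Cldn23 and Tjp1 did not pass. The course of age departed from a straight line for 4 members (Cldn1, Cldn2, Cldn8 and Ocln), beside 16.2% of all genes. Cldn2 (adjusted edgeR p = 0.0640) and Cldn8 (0.0817) were near the limit there, and both were lost with no filter on low counts (0.109 and 0.137).

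Among pairs of neighbouring ages, members passed only between 15 and 24 months. In that step 4 of 10 members passed, Cldn1 and Ocln higher and Cldn15 and Cldn2 lower at 24 months, beside 13.5% of all genes (6.28% higher and 7.24% lower). No member passed between 3 and 9 months (3 members had an unadjusted edgeR p below 0.05, and DESeq2 called 1), where 8.69% of all genes did (3.64% higher, 5.05% lower). None passed between 9 and 15 months (3 below 0.05 unadjusted, 0 by DESeq2), where 0.431% did (0.251% higher, 0.180% lower). None passed between 24 and 28 months (3 below 0.05 unadjusted, 0 by DESeq2), where 11.7% did (5.66% higher, 6.01% lower). Over the whole span from 3 to 28 months 4 members passed, with Cldn1 and Ocln higher and Cldn15 and Cldn8 lower, beside 49.4% of all genes (23.5% higher and 25.9% lower). These comparisons share their age groups, so that they are not independent of each other.

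**Figure D2:**
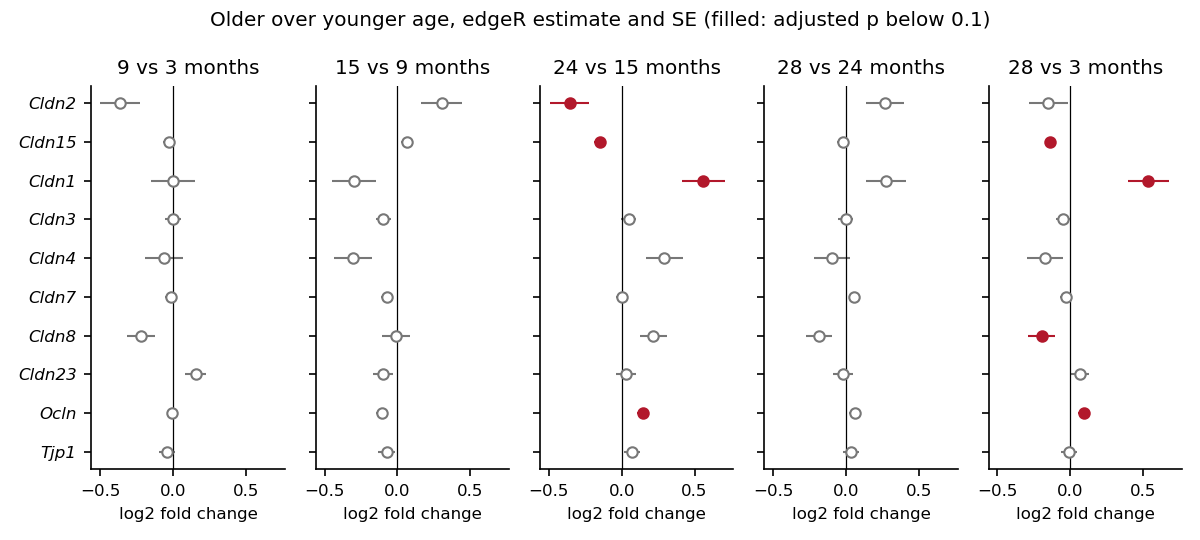
Log2 fold change of the older over the younger age with its SE, from edgeR, for the 10 members in 5 comparisons of ages. Filled red points passed an adjusted p of 0.1: 4 members between 15 and 24 months, 4 between 3 and 28 months, and 0 in the other comparisons shown.

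The median log2 fold change of the 10 members was 0.06 from 15 to 24 months and −0.04 from 3 to 28 months, while that of all genes tested was 0.00 and −0.01. The members therefore did not shift as a block, and the changes of single genes went both ways. Apart from Cldn1, no change that passed reached 0.5 on the log2 scale.

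Among the channel-forming claudins, Cldn15 carries sodium and other cations across the gut epithelium. Its level was 199.8 to 269 CPM at 3 months (median 227), 193 to 285 at 9 months (median 227) and 182 to 285 at 15 months (median 242). It was 198 to 238 CPM at 24 months (median 219.9) and 186 to 255 at 28 months (median 214). The oldest ages sat lower and the ranges overlapped, but none of the 17 mice of 24 months was above the 15-month median. From 15 to 24 months Cldn15 fell by 0.15 on the log2 scale (SE 0.04, adjusted edgeR p = 0.0148), and from 15 to 28 months by 0.17 (SE 0.04, adjusted edgeR p = 0.000562).

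Cldn15 decreased by 0.14 from 3 to 28 months (SE 0.04, adjusted edgeR p = 0.00417), with 15 of 18 old mice below the 3-month median. The difference was −0.15, −0.09 and −0.16 within the 3 library batches. From 3 to 24 months it decreased by 0.11 (SE 0.04, adjusted edgeR p = 0.0276). Over that span 3 of 5 smooth muscle markers were higher (score 0.60), and with their score in the fit the difference was −0.08 (SE 0.04, adjusted edgeR p = 0.199). Between 3 and 9, 9 and 15, and 24 and 28 months the change was −0.03, 0.06 and −0.02, each with an SE of 0.04 and an adjusted edgeR p above 0.6. Of the 4 members called from 3 to 28 months, Cldn15 alone passed in all 13 other settings run and in each fit without 1 mouse.

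Goblet cell markers moved alongside: 5 of 5 (Muc2, Tff3, Clca1, Fcgbp and Spdef) were lower at 28 than at 3 months, and their summed level ran from 25784 to 35656 CPM at 3 months and from 20258 to 30447 CPM at 28 months. Over the 83 mice, with batch and age removed, Cldn15 and the goblet score had a Pearson's r of 0.44 (rho 0.39, 0.34 without the 2 mice farthest out on the score), which ranged from −0.19 at 28 months to 0.84 at 15 months. From 15 to 24 months 2 of 5 goblet markers (score −0.28) and 2 of 4 tuft cell markers (score −0.20) were lower. The part of these markers in the fall of Cldn15 was not tested. With the score of the 7 epithelial markers in the fit, the 3 to 28 month difference of Cldn15 was −0.11 (SE 0.04, adjusted edgeR p = 0.0194).

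Cldn2, which forms channels for cations and water in leaky epithelia, was the most variable of the abundant members. Its level was 187 to 648 CPM at 3 months (median 331), 209.6 to 337 at 9 months (median 285) and 182 to 508 at 15 months (median 342). It was 180.1 to 370 CPM at 24 months (median 271) and 179 to 407 at 28 months (median 327). The lowest mice of the 5 ages lay between 179 and 209.6 CPM, and the ages differed more in how high the others reached. The spread was widest at 3 months, where the SD was 141 CPM against 41.2 at 9 months.

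Cldn2 decreased by 0.36 on the log2 scale from 15 to 24 months (SE 0.14, adjusted edgeR p = 0.0862), with 13 of 17 mice of 24 months below the 15-month median. The call was lost in 17 of the 83 fits that left out 1 mouse, each of them a mouse of 15 or 24 months, and the highest adjusted p among these was 0.154. From 3 to 24 months it decreased by 0.42 (SE 0.14, adjusted edgeR p = 0.0166). Within the library batches that difference was −0.50, 0.03 and −0.63, so batch 2 showed no fall. From 3 to 9 months the change was −0.36 (SE 0.14, adjusted edgeR p = 0.108), and it passed in 10 of the 83 fits without 1 mouse. From 3 to 28 months it was −0.15 (SE 0.13, adjusted edgeR p = 0.376).

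The 3-month mice also differed widely in smooth muscle markers (Acta2, Myh11, Cnn1, Des and Actg2), whose summed level ran from 674 to 4259.8 CPM at that age. It ran from 1047.7 to 4426.4 CPM at 9 months, where Cldn2 spread least (SD 41.2 CPM), and from 2661 to 4469.95 CPM at 24 months. Within the 16 mice of 3 months, Cldn2 and the smooth muscle score had an r of −0.79. Within the other ages r ran from −0.20 to 0.03, the latter at 9 months. With the smooth muscle score in the fit, the 3 to 24 month difference of Cldn2 was −0.17 (adjusted edgeR p = 0.411) and the 15 to 24 month difference −0.30 (adjusted edgeR p = 0.124). The smooth muscle score was 0.60 higher at 24 than at 3 months.

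Among the sealing claudins, Cldn1 is a broad barrier claudin best known from skin. Here it was the rarest member, and it had the largest fold changes. Its level was 0.460 to 1.30 CPM at 3 months (median 0.883), 0.426 to 1.42 at 9 months (median 0.872) and 0.468 to 0.941 at 15 months (median 0.684). It was 0.631 to 1.72 CPM at 24 months (median 0.948) and 0.738 to 1.87 at 28 months (median 1.20). The course dipped at 15 months and then climbed, and all 18 mice of 28 months lay above the 15-month median.

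Cldn1 rose by 0.56 on the log2 scale from 15 to 24 months (SE 0.15, adjusted edgeR p = 0.0102), with 15 of 17 mice above the 15-month median. It rose by 0.83 from 15 to 28 months (SE 0.14, adjusted edgeR p = 3.90e-06) and by 0.54 from 3 to 28 months (SE 0.14, adjusted edgeR p = 0.00132). The 3 to 28 month difference was 0.59, 0.22 and 0.71 within the 3 library batches. From 9 to 15 months the change was −0.30 (SE 0.15, adjusted edgeR p = 0.548), so the dip itself did not pass. The calls of Cldn1 named here held in all 83 fits that left out 1 mouse.

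With the score of clock genes described further on in the fit, the 3 to 28 month difference of Cldn1 was 0.29 (SE 0.17, adjusted edgeR p = 0.199), whereas the 15 to 24 month difference was 0.58 (SE 0.14, adjusted edgeR p = 0.00586). Mesothelial markers (Upk3b, Msln and Wt1) were 3 of 3 higher at 28 than at 3 months, from a summed 1.07 to 4.47 CPM at 3 months to 2.15 to 11.2 CPM at 28 months, and endothelial markers 4 of 4. From 15 to 24 months endothelial markers were 4 of 4 higher (median 0.24) and macrophage markers 2 of 4 higher, while mesothelial markers passed in 0 of 3. With batch and age removed, the r of Cldn1 was 0.21 with the mesothelial, 0.12 with the endothelial and 0.11 with the macrophage score. It was highest with the smooth muscle score (0.29) and −0.07 with the epithelial score. The part of these lists in the rise of Cldn1 was not tested. At under 2 CPM in every mouse, Cldn1 is measured less finely than the other members.

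**Figure D3:**
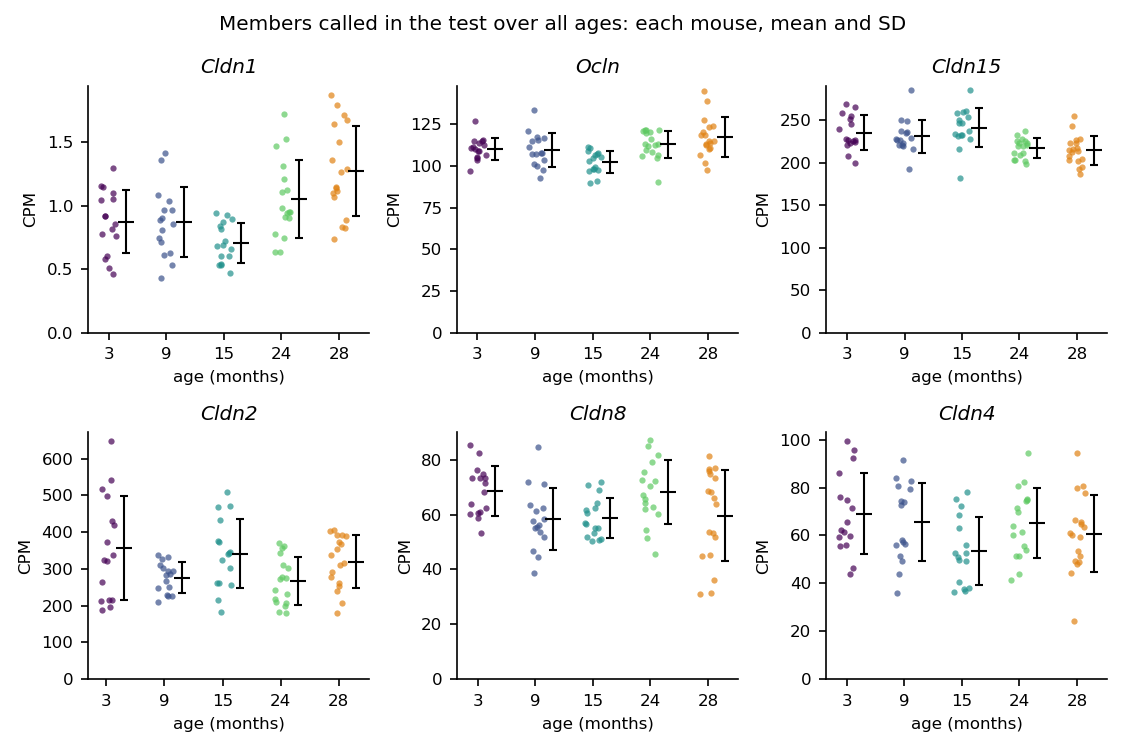
CPM of the 6 members that passed the test over all ages, by age in months, with a point for each mouse and the mean and SD beside them. The ages overlap for every gene. Cldn1 is lowest at 15 months (0.708 ± 0.157 CPM) and highest at 28 months (1.27 ± 0.354 CPM), and Cldn8 spreads most at 28 months.

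Cldn3 and Cldn7 were the bulk of the claudin RNA. Cldn3, a sealing claudin of many glands and gut segments, ranged from 284 to 586 CPM over all mice (median 433). Cldn7, which also sits along the lateral membrane below the junction, ranged from 529 to 849 CPM (median 725). Neither differed among ages by the test over all 5 (adjusted edgeR p = 0.437 for Cldn3 and 0.171 for Cldn7).

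Cldn3 changed by −0.05 (SE 0.05) from 3 to 28 months and Cldn7 by −0.03 (SE 0.04). Cldn7 came closest to the limit from 3 to 24 months, at −0.09 (SE 0.04, adjusted edgeR p = 0.102), and 15 of 17 mice of 24 months lay below the 3-month median. It passed in 14 of the 83 fits that left out 1 mouse. When the slope of expression on GC content in each library was added to the fit, both genes passed the test over all ages (adjusted edgeR p = 0.0230 for Cldn3 and 0.0219 for Cldn7), while their 3 to 28 month differences did not.

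Cldn4, a sealing claudin that limits sodium, was 44.1 to 99.2 CPM at 3 months (median 63.8), 35.9 to 91.5 at 9 months (median 65.4) and 36.2 to 78.3 at 15 months (median 51.9). It was 41.5 to 94.2 CPM at 24 months (median 64.0) and 24.1 to 94.4 at 28 months (median 60.6). The ranges overlapped at all ages and the 15-month mice sat lowest. From 3 to 15 months Cldn4 fell by 0.37 on the log2 scale (SE 0.13, adjusted edgeR p = 0.0769), with 12 of 16 mice below the 3-month median and differences of −0.57, −0.43 and −0.12 in the 3 batches.

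This comparison called 2 of 10 members, Cldn4 and Ocln, both lower, beside 7.75% of all genes (4.25% higher, 3.50% lower). The call of Cldn4 was lost in 12 of the 83 fits without 1 mouse (highest adjusted p 0.137) and its call over all ages in 37. With the epithelial score in the fit neither passed (adjusted edgeR p = 0.1002 from 3 to 15 months and 0.109 over all ages), and with the length slope the one over all ages did not (adjusted edgeR p = 0.102). From 3 to 28 months the change was −0.17 (SE 0.12, adjusted edgeR p = 0.267).

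Cldn8, which limits sodium leak in the colon and the kidney tubule, was 53.3 to 85.5 CPM at 3 months (median 69.9), 38.9 to 84.5 at 9 months (median 56.8) and 50.4 to 71.8 at 15 months (median 56.8). It was 45.7 to 87.1 CPM at 24 months (median 67.2) and 31.1 to 81.5 at 28 months (median 64.8). The 28-month mice had the widest spread, with an SD of 16.6 CPM against 7.20 to 11.7 CPM at the other ages. Their median stood above those of 9 and 15 months, while their mean of 59.6 CPM was close to the 58.3 CPM of 9 months and the 58.8 CPM of 15 months. The 4 lowest of them, at 31.1 to 44.96 CPM, were all in library batch 1.

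Cldn8 decreased by 0.20 on the log2 scale from 3 to 28 months (SE 0.09, adjusted edgeR p = 0.0778), with 12 of 18 mice below the 3-month median. The difference was −0.46, 0.07 and −0.27 within the 3 batches, so batch 2 went the other way. The call was lost in 13 of the 83 fits without 1 mouse, with adjusted p-values up to 0.179, and in a fit of only those 2 ages (adjusted edgeR p = 0.161). From 3 to 9 and from 3 to 15 months the changes were −0.22 and −0.23 (SE 0.10 each), with adjusted edgeR p-values of 0.171 and 0.168.

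The 28-month mice also stood apart in the genes of the circadian clock. Of 10 clock genes, listed after the data were seen, Dbp, Tef, Nr1d1, Nr1d2, Per3 and Ciart were higher and Arntl, Npas2 and Cry1 lower at 28 than at 3 months, with Dbp up by 1.99 (SE 0.32, adjusted edgeR p = 4.98e-07) and Arntl down by 0.56 (SE 0.12, adjusted edgeR p = 0.000157). Clock itself changed by −0.06 (SE 0.04, adjusted edgeR p = 0.269). A score was made as the mean log2 CPM of the 6 that were higher minus that of the other 4. Its signs thus follow the 3 to 28 month differences in these mice, so a higher value at 28 months is partly built in. The score averaged −2.37 at 3 months, −2.15 at 9, −2.33 at 15, −2.46 at 24 and −0.486 at 28 months. At 28 months it ran from −3.04 to 1.57, and 10 of the 18 mice of that age were above every 24-month mouse. The time of day at which tissue was taken is not given in the sources used here, so that it cannot be told apart from age at 28 months.

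Cldn8 followed this score among the oldest mice. Within the 18 mice of 28 months r was −0.82 between Cldn8 and the score, 0.86 between Cldn8 and Arntl and 0.84 between Cldn8 and Npas2. Arntl and Npas2 are themselves part of the score. The mice with the least Cldn8, at 31.1 and 31.4 CPM, had the highest scores, 1.43 and 1.57. The 4 highest scores at 28 months (1.02 to 1.57) belonged to the same 4 mice of batch 1 that had the lowest Cldn8. At the other ages, where the score varied less, r with the score ran from −0.47 to 0.10. Over all 83 mice with batch and age removed it was −0.47 (rho −0.36, −0.39 without the 2 mice farthest out), and within the 3 library batches it ran from −0.58 to −0.24.

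With the clock score in the fit, a setting added after the data were seen, the 3 to 28 month difference of Cldn8 was 0.05 (SE 0.10, adjusted edgeR p = 0.781), with the sign turned. In the same fit Cldn4, whose r with the score ran from −0.67 to −0.24 within the 5 ages, was 0.54 higher at 28 than at 15 months (SE 0.14, adjusted edgeR p = 0.00300), while without the score that difference was 0.20 (SE 0.13, adjusted edgeR p = 0.229). Of the 4 members called from 3 to 28 months, Cldn15 alone passed with the score in the fit, and 6212 of all genes passed in place of 9046. The signs of the score follow the 3 to 28 month differences of its genes, so it takes up part of that age difference by construction. In this fit age and clock genes therefore cannot be told apart. From 15 to 24 months, ages at which the score did not stand apart, the same 4 members passed with it.

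**Figure D4:**
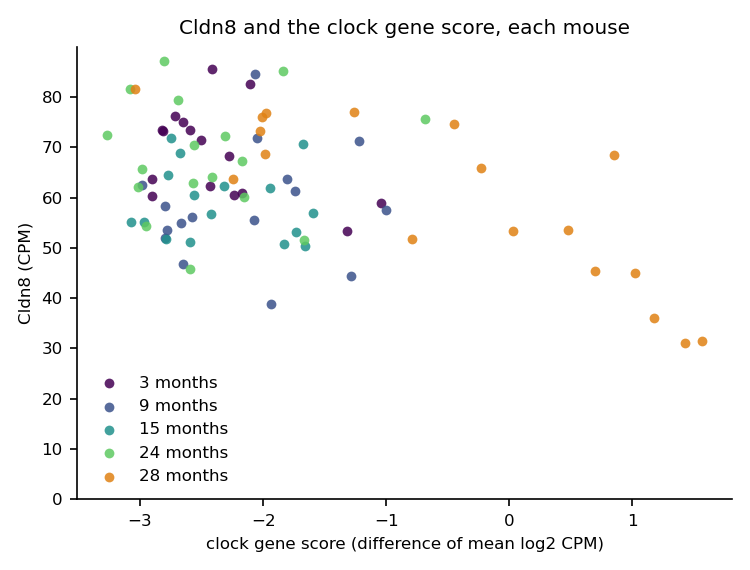
Cldn8 in CPM against the clock gene score (mean log2 CPM of 6 clock genes minus that of 4 others) in each of the 83 mice, coloured by age. The 28-month mice spread from −3.04 to 1.57 on the score and their Cldn8 runs from 81.5 CPM down to 31.1 CPM, the lowest values at the highest scores, while the other ages reach no higher than −0.687.

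Cldn23, found mainly in the surface cells of the colon, ranged from 35.9 to 87.5 CPM over all mice (median 61.7) and did not pass the test over all ages (adjusted edgeR p = 0.360). Its largest difference was from 3 to 9 months, at 0.15 (SE 0.07, adjusted edgeR p = 0.191), and from 3 to 28 months it was 0.06 (SE 0.07). Its spread at 24 months was narrow, with an SD of 5.30 CPM against 10.99 at 9 months.

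Occludin was among the steadiest members, and small changes passed. Ocln was 97.1 to 127 CPM at 3 months (median 111), 93.0 to 134 at 9 months (median 108) and 89.7 to 111 at 15 months (median 104). It was 90.6 to 122 CPM at 24 months (median 113) and 97.9 to 145 at 28 months (median 115). As with Cldn1, the course was lowest at 15 months and highest at 28, with overlap between all ages.

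Ocln rose by 0.15 on the log2 scale from 15 to 24 months (SE 0.04, adjusted edgeR p = 0.0143), and 16 of 17 mice lay above the 15-month median. The difference was 0.17, 0.07 and 0.21 within the 3 batches. From 15 to 28 months it rose by 0.21 (SE 0.04, adjusted edgeR p = 2.39e-05). From 3 to 15 months it fell by 0.11 (SE 0.04, adjusted edgeR p = 0.0903), a call that was lost in 22 of the 83 fits without 1 mouse. That call also ended with the smooth muscle score (adjusted edgeR p = 0.223) or the length slope in the fit, with either other filter on low counts and without the batch term. From 3 to 28 months Ocln rose by 0.09 (SE 0.04, adjusted edgeR p = 0.0458). This was lost when the 28-month mouse of replicate 12 was left out (adjusted p 0.111) and with the clock score in the fit (adjusted edgeR p = 0.180).

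In the comparison of 28 with 15 months 3 members passed (Cldn1 and Ocln higher, Cldn15 lower), beside 42.4% of all genes (20.2% higher, 22.2% lower). The same 3 passed from 9 to 28 months, beside 40.0% of all genes (20.0% in each direction), though Cldn15 lost this call without the 9-month mouse of replicate 10 (adjusted p 0.132) and Ocln without the 28-month mouse of replicate 12 (adjusted p 0.105). With the clock score in the fit neither Cldn1 (adjusted edgeR p = 0.144) nor Ocln (adjusted edgeR p = 0.154) passed from 9 to 28 months. From 3 to 24 months 2 passed (Cldn2 and Cldn15, both lower), beside 34.5% (16.7% higher, 17.8% lower). From 9 to 24 months 0 passed (2 below 0.05 unadjusted, 0 by DESeq2), beside 15.5% (8.93% higher, 6.55% lower). With the GC slope in the fit Cldn3 and Cldn7 passed there, and among the 83 fits without 1 mouse Cldn8 passed in 2 and Cldn15 in 1.

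Tjp1, the scaffold, stayed within 78.5 to 168 CPM (median 139) and did not pass the test over all ages (adjusted edgeR p = 0.395). The 3 to 28 month difference was −0.01 (SE 0.06) and the 15 to 28 month difference 0.10 (SE 0.06, adjusted edgeR p = 0.141). Its lowest mice were of 9, 15 and 24 months, at 78.5, 84.6 and 90.9 CPM, whereas the lowest of 3 and 28 months were at 119 and 125 CPM. Over the mice Tjp1, the gene with the longest span among the members, followed the slope of expression on gene length in each library (r 0.73, rho 0.61, 0.68 without the 2 mice farthest out, batch and age removed). With that slope in the fit the test of Tjp1 over all ages gave an adjusted edgeR p of 0.768.

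To see which members vary together, Pearson's r was taken over the 83 mice between all 45 pairs, with batch and age removed, as a description, since all values of a mouse come from 1 library. Of the 45 pairs, 37 had an r between −0.3 and 0.3. Cldn3 and Cldn7, the abundant pair, were the closest (r 0.75, rho 0.68, 0.67 without the 2 mice farthest out), and r ran from 0.44 to 0.88 within the 5 ages. Cldn4 and Cldn23 followed (r 0.61, rho 0.50, 0.49 without those 2 mice, 0.14 to 0.77 within ages), then Ocln and Tjp1 (r 0.55, rho 0.51, 0.50, 0.02 to 0.81) and Cldn3 and Cldn23 (r 0.54, rho 0.45, 0.38, 0.38 to 0.86). The genomic neighbours Cldn3 and Cldn4 had an r of 0.37, which was 0.19 without the 2 mice farthest out.

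The pairs with an r below −0.3 were Cldn4 with Cldn15 (r −0.37, rho −0.41) and Cldn1 with Cldn2 (r −0.36, rho −0.31). The former was negative within all 5 ages, from −0.64 to −0.20, whereas the latter ran from −0.78 at 3 months to 0.24 at 28 months. Cldn1 and Ocln, which share the low point at 15 months and the high point at 28, hardly moved together from mouse to mouse once age was removed (r 0.12).

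Some members also followed properties of the whole library. Cldn3 followed the slope of expression on GC content in each library (r 0.78, rho 0.63, 0.65 without the 2 mice farthest out, 0.75 to 0.88 within ages). For Cldn7 this relation was looser and uneven over the ages (r 0.59, rho 0.37, 0.40 without those 2 mice, 0.06 at 3 months to 0.68 at 28 months). Cldn4 and Cldn23, a pair that moved together, had an r of 0.47 and 0.41 with the GC slope. Ocln, which moved with Tjp1, had an r of 0.39 (rho 0.25) with the length slope. With the score of the 7 epithelial markers Cldn7 had an r of 0.73 (rho 0.71, 0.66 without 2 mice) and Cldn3 an r of 0.49 (rho 0.52, 0.45 without 2 mice). Cldn8 had an r of 0.40 (rho 0.38, 0.38 without 2 mice) with the score of distal Hox genes, a marker of position along the colon, whose summed level ran from 19.5 to 77.2 CPM over the mice. From 3 to 28 months, the span over which Cldn8 was lower, 2 of the 4 Hox genes tested were lower too (median −0.13, score −0.22). The part of GC slope, length slope, epithelial share and position in these relations was not tested.

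**Figure D5:**
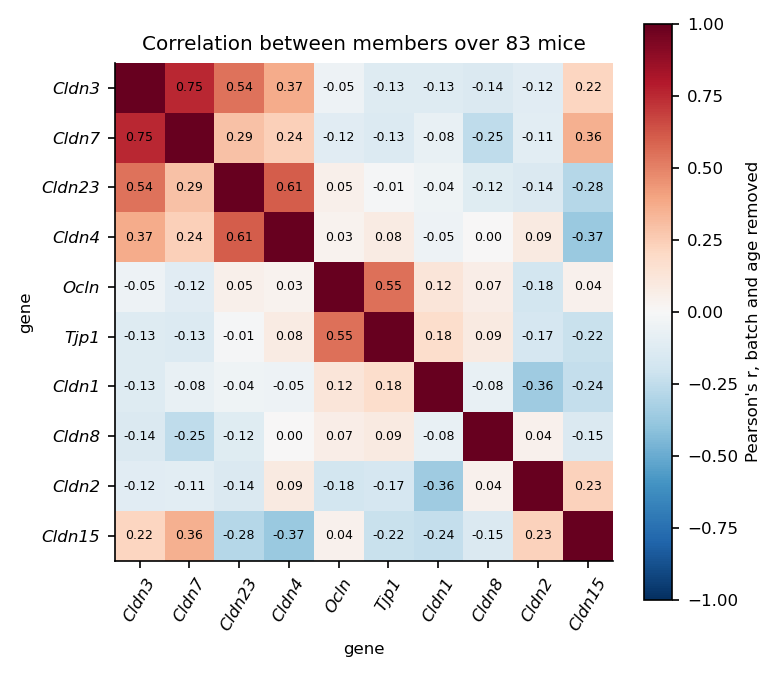
Pearson's r between the log2 CPM of the 10 members over the 83 mice, with library batch and age removed, printed in each cell. Cldn3 with Cldn7 is highest at 0.75, Cldn4 with Cldn15 lowest at −0.37.

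The genes whose levels were most like each member's over the 83 mice, with batch removed, were found among all genes tested. Cldn2 was closest to Sidt1 (r 0.85) and Mat2a (r 0.81), and B4galt4 came next (r 0.81, or 0.87 with age removed too). Cldn3 was closest to Rnpepl1 (r 0.84), Cldn7 to Uqcrc1 (r 0.85) and Tjp1 to Elf4 (r 0.86). Cldn15 was closest to Ptcd2 (r 0.77) and Ocln to Wipf2 (r 0.74). Cldn1 was closest to Galnt15 (r 0.68, falling to 0.50 with age removed) and Cldn23 to Sp2 (r 0.67). The likest genes of Cldn8 were St5 (r 0.59) and the clock genes Npas2 (r 0.56) and Arntl (r 0.54). Those 2 clock genes followed Cldn8 closely only at 28 months (r 0.84 and 0.86). Within the other ages r ran from 0.06 to 0.41 for Npas2 and from −0.06 to 0.43 for Arntl. Cldn4 had no gene above 0.57 (Lypla2).

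Markers of cell types were compared beside the members. From 3 to 28 months 2 of the 7 epithelial markers were lower and none higher, and their score differed by −0.07 on the log2 scale (two-sided permutation test, p = 0.0371, 0.186 adjusted over 5 pairs of ages), with 3 of 18 old mice above the 3-month median. Tuft cell markers were 4 of 4 lower (median −0.47), B cell markers 3 of 4 lower (median −0.93), cycling markers 3 of 4 lower and surface colonocyte markers 2 of 6 lower, while macrophage markers were 3 of 4 higher (median 0.45). With the epithelial score in the fit, the 4 members called from 3 to 28 months passed again: Cldn1 at 0.52 (SE 0.14, adjusted edgeR p = 0.00232), Cldn15 at −0.11, Cldn8 at −0.23 (SE 0.09, adjusted edgeR p = 0.0403) and Ocln at 0.09 (SE 0.04, adjusted edgeR p = 0.0711).

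The rest of the junction was examined under 65 further gene names, from tight junctions, polarity complexes, adherens junctions and desmosomes. Of these names 62 were in the table and 53 tested. The name Pals1, which was not in the table, is a synonym of Mpp5, which was tested. From 3 to 28 months 24 of these 53 passed (8 higher and 16 lower), or 45.3%, close to the 49.4% of all genes, and their median log2 fold change was −0.04. By group, 2 of 5 other claudins passed (1 higher, 1 lower), 3 of 5 tricellular and MARVEL proteins (1 higher, 2 lower), 3 of 7 junctional adhesion molecules and their kin (2 higher, 1 lower) and 5 of 12 scaffolds (1 higher, 4 lower). Polarity genes passed in 2 of 7 (1 higher, 1 lower), junction regulators in 3 of 5 (all lower) and genes of adherens junctions and desmosomes in 6 of 12 (2 higher, 4 lower).

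Among these genes with a mean of at least 1 CPM, the largest rise was that of Ildr2, a tricellular junction protein, from 0.909 to 2.11 CPM at 3 months (median 1.40) to 1.71 to 4.33 CPM at 28 months (median 2.67), a log2 fold change of 1.05 (SE 0.14, adjusted edgeR p = 3.44e-09). Esam, an adhesion molecule of endothelial cells, rose by 0.37 (SE 0.05, adjusted edgeR p = 3.42e-09), from a median of 12.2 to 15.8 CPM. Jam2, also of endothelium, rose by 0.25 (SE 0.08, adjusted edgeR p = 0.00827) and the scaffold Amotl2 by 0.19 (SE 0.07, adjusted edgeR p = 0.0286). The 4 endothelial markers were all higher too, at a median of 0.19, with summed levels of 83.5 to 101 CPM at 3 months and 87.8 to 124 CPM at 28 months, and their part in Esam and Jam2 was not tested.

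Among genes at or above that level, the largest falls were smaller. Marveld3, a relative of occludin, fell by 0.23 (SE 0.04, adjusted edgeR p = 1.59e-05), from a median of 71.8 to 62.4 CPM. Tjap1 fell by 0.21 (SE 0.04, adjusted edgeR p = 1.37e-05), as did Ybx3, the ZO-1 binding transcription factor, by 0.21 (SE 0.04, adjusted edgeR p = 1.21e-05). Ctnnb1, beta-catenin of the adherens junction, fell by 0.19 (SE 0.03, adjusted edgeR p = 1.41e-06), from 995 to 1233 CPM at 3 months to 855 to 1028 CPM at 28 months. The other claudins that passed, both with a mean below 1 CPM and named after their values were seen, were Cldn9 and Cldn10. Cldn9 was at 0.164 to 0.583 CPM at 3 months (median 0.272) and at 0 to 0.255 CPM at 28 months (median 0.146), with overlap, and fell by 1.23 on the log2 scale (SE 0.24, adjusted edgeR p = 1.89e-05), more than Marveld3. Cldn10 was at 0.114 to 0.473 CPM at 3 months (median 0.280) and at 0.146 to 0.529 CPM at 28 months (median 0.356), and rose by 0.40 (SE 0.17, adjusted edgeR p = 0.0474).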

How the data were processed

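The deposited table held counts: the authors trimmed reads with cutadapt 2.8, aligned them to GRCm38 with HISAT2 2.1.0, handled alignments with SAMtools 1.9 and counted stranded read pairs per gene with featureCounts (Subread 2.0.1). Values were not normalised. Libraries were TruSeq stranded polyA preparations, 1 per mouse, so each mouse is a replicate. Groups came from the age labels.

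Genes were filtered with filterByExpr, scaled by TMM and tested with edgeR 4.0.16 (R 4.3.3) on age and library batch, with Benjamini-Hochberg adjustment and a threshold of 0.1. CPM and TPM were computed from these counts, TPM with merged exon lengths of GENCODE M21, which matched 37652 of the 37764 genes. Fold changes are on the log2 scale, and correlations used log2 CPM with a prior count of 2. On simulated data for 28 against 3 months, 55% of 100 genes changed by 0.25 and 81% of 100 changed by 0.5 were called. So were 11 of 18125 unchanged genes, out of 18325 fitted. Far fewer genes were changed there than the 49.4% called in the real comparison, and no batch differences were simulated. These rates therefore need not hold for the real fit.

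Named genes were the 10 members, up to 4 largest rises and falls among other junction genes past the threshold with a mean of at least 1 CPM, the 3 genes most correlated with each member, and markers that moved with a result. The members and lists were chosen with earlier results of these data known. Alternatives were DESeq2 1.42.0, its size factors, other filters, no batch term, a replicate block, epithelial or smooth muscle scores as covariates, a fit of only the ages compared, a threshold of 0.05 and leaving out each mouse. Covariates for clock genes, gene length and GC content were added after the data were seen. Replicate numbers only named mice: same-numbered mice of different ages had a median r of 0.01.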

Additional observations from a re-analysis of the deposited data

How the results depend on the processing

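The 28 calls of members were recomputed in 377 alternatives, counting for the fits without 1 mouse the highest adjusted p alone, of which 331 kept direction and side of the threshold, 45 kept direction only and 1 reversed. With the clock score as a covariate Cldn8 from 3 to 28 months turned to 0.0454 and 1 member, Cldn15, passed in place of 4. The clock score also ended the calls of Cldn1 (adjusted edgeR p = 0.144) and Ocln (0.154) from 9 to 28 months and of Cldn2 for the line (0.118). The smooth muscle score ended those of Cldn2 from 3 to 24 and 15 to 24 months, over all ages and for the line, of Cldn15 from 3 to 24 months (0.199) and of Ocln from 3 to 15 months (0.223). The length slope ended those of Cldn4 over all ages (0.102), Cldn8 for the line (0.106) and Ocln from 3 to 15 months (0.191). With no filter on low counts the calls lost were Cldn2 from 15 to 24 months and for the line, Cldn4 from 3 to 15 months and over all ages, Cldn8 from 3 to 28 months and for the line, and Ocln from 3 to 15 and 9 to 28 months (0.101 to 0.159). The epithelial score ended the calls of Cldn4 from 3 to 15 months (0.1002) and over all ages (0.109). Without the batch term Cldn4 over all ages and Ocln from 3 to 15 months were lost, and Ocln from 3 to 15 months with at least 10 counts in every mouse. From 3 to 9 months 2 members passed with the GC slope as a covariate and 1 with DESeq2, in place of 0. Departure from a straight line was called for 2 members in place of 4 with no filter on low counts and at an adjusted p of 0.05. The epithelial score from 3 to 28 months was −0.0616 with DESeq2 size factors (permutation p = 0.0737). The cause of these shifts was not tested.

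Over the 83 fits without 1 mouse, 5 to 7 members passed over all ages, 2 to 4 from 3 to 28 months, 3 to 5 from 15 to 24 months, 0 to 2 from 3 to 9 months and 3 to 5 for the line. The count of 2 from 3 to 28 months came without the 28-month mouse of replicate 12, and that of 2 from 3 to 9 months without the 9-month mouse of replicate 8. With the replicate block 6 members passed over all ages, 4 from 3 to 28 months, 4 from 15 to 24 months and 3 for the line, where Cldn2 was lost (adjusted edgeR p = 0.103), and 22 of the other junction genes in place of 24. The replicate numbers do not pair the mice: of 161 same-numbered pairs of different ages 27 had an r over 0.1, and 3 of 83 mice matched their own number best. Counts per library limit Cldn1 most, since it stayed under 2 CPM.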
